A study of Mus musculus with 2 samples.

Results

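The genes described here drive or mark the cell division cycle, and were chosen by name: 22 genes of DNA replication and its start, 22 genes of mitosis, 5 D cyclins and partners, and 3 inhibitors of cyclin-dependent kinases (CDKs). All 52 had a probe on the array, 84 probes in all. A member counts as measured when the scanning program found a probe well above background in the transgenic or the control channel of array 1, which held for 47 of them, out of 10456 measured genes or transcripts and 27594 with a probe. RNA came from the skin of 25-day-old Pla2g2f-Tg/+ mice, which carry a transgene for a secreted phospholipase A2, and of their littermate controls, both on a C57BL/6 background and pooled from 4 mice per genotype. The sources used here do not give the promoter of the transgene. Array 1 carried the transgenic pool in Cy5 and array 2 carried it in Cy3. The labels number the arrays as replicates 1 and 2, while the series' design speaks of pooling from 4 mice for a genotype and leaves unsaid whether each array had its own pools. The arrays are therefore counted as a dye swap of 1 replicate, and no p-value is given.

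A cell commits to division when D cyclins with Cdk4 or Cdk6, and then cyclin E with Cdk2, release the E2F transcription factors. E2F targets load the MCM helicase on DNA and make and join nucleotides, while mitotic genes, which peak later, are controlled through CHR and CCAAT elements of their promoters. In skin the dividing cells lie mainly in the basal layer of the epidermis and, while hair grows, in the matrix at the base of the follicle.

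Cell cycle transcripts were slightly less abundant in the transgenic pool in nearly all cases. Of the 47 measured members, 43 had a log2 ratio of transgenic over control below 0 on both arrays (91.5%), beside 35.7% of all measured genes. The differences were small, and only 4 members passed a size rule of 1.5-fold at their brightest probe. At least 1.5-fold lower on each array were Cdk1, Nek2, Kif11 and Ccnd1, beside 3.8% of all measured genes. With another background correction and dye normalisation of array 1 (normexp and loess), Ccnd1 alone kept this size, while Cdk1, Nek2 and Kif11 lay at -0.32, -0.19 and -0.14 on array 1. No member (0) was 2-fold lower on each array, beside 1.68% of all measured genes, and none (0) was 2-fold or 1.5-fold higher, beside 3.73% and 8.26%. One member alone, Ccnd3, lay above 0 on both arrays, beside 35.3%. The median log2 ratio was -0.38 over the measured members and -0.01 over all measured genes. Skin RNA cannot tell fewer dividing cells apart from less of these transcripts per cell.

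**Figure D1:**
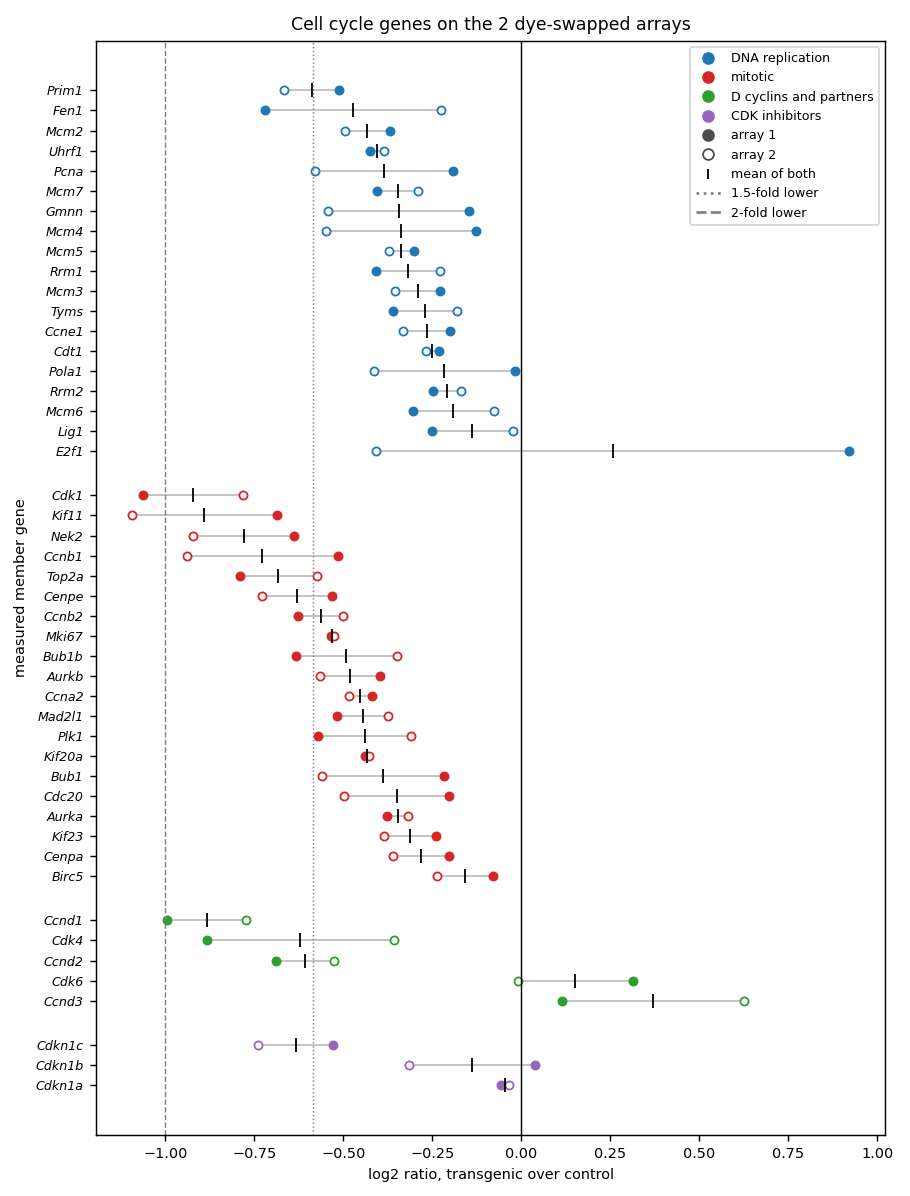
Log2 ratio of transgenic over control (horizontal axis) for each of the 47 measured members, in order of their mean within each group, with array 1 as filled points, array 2 as open points and their mean as a tick. All 20 mitotic genes and 18 of 19 replication genes lie left of 0 on both arrays, and the E2f1 points lie on opposite sides.

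The precision of a single ratio is limited by the number of arrays. The arrays differed by a median of 0.20 log2 units over the measured members and 0.23 over all measured genes. The scanning program gives each log2 ratio of array 1 its own error, which lay between 0.20 and 0.40 for the members. On array 1, 19 of the 47 ratios were lower than 0 by more than 2 such errors, beside 11.0% of all measured genes, with 12 of 20 in the mitotic group and 3 of 19 in the replication group. E2f1, whose control signal was not well above background, was the 1 member higher by more than 2 errors, beside 15.7%. The dyes were scaled by the program, and on its scale 10 spike-in probes read 0.47 log2 units higher in the transgenic channel. Centred on the spike-ins, 45 members were below 0 on both arrays, beside 78.6% of all measured genes and 35.7% before. At least 1.5-fold lower on each array were then 38, beside 23.7%, and 2-fold lower 6, beside 4.53%. None (0) was above 0 on both arrays, 1.5-fold higher or 2-fold higher on that scale, beside 10.6%, 3.34% and 1.64%. The share of higher genes among all 2-fold calls was 68.9% as deposited and 26.6% on the spike-in scale. Values below are on the deposited scale. Over 4 equal groups of measured genes by array 1 signal, the median log2 ratio of all genes ran from -0.02 to 0.01, and that of the members in each group from -0.48 to -0.32.

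Licensing genes, which load the replicative helicase on DNA before S phase, were lower on both arrays in all 8 measured cases, with a median log2 ratio of -0.34. None (0) was 1.5-fold lower on each array. Mcm2, a subunit of that helicase, had signals of 1735 in the transgenic and 2242 in the control channel of array 1. Its log2 ratios were -0.37 (array 1) and -0.50 (array 2), 1.35-fold lower in the mean of -0.43. The 5 other helicase subunits lay between -0.35 (Mcm7) and -0.19 (Mcm6), with Mcm5 and Mcm4 both at -0.34 and Mcm3 at -0.29. A second measured probe of Mcm3 gave a mean of -0.49, outside this range and lower than Mcm2. At their brightest probes the 6 subunits spanned a narrow range, and the arrays differed by up to 0.42 for 1 of them, Mcm4. Cdt1, which brings the helicase to origins, lay at -0.23 and -0.27. Gmnn encodes geminin, the inhibitor of Cdt1, and lay at -0.15 and -0.54. Both the loader and its inhibitor were therefore below 0 on each array. Cdc6, the partner of Cdt1 in loading, was not well above background in either channel with either of its 2 probes.

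The genes of DNA synthesis were all 8 measured and all below 0 on both arrays, with a median of -0.29. Prim1, the catalytic subunit of primase, had the lowest mean of the replication group. Its signals were 1781 in the transgenic and 2538 in the control channel, and its log2 ratios were -0.51 and -0.67, 1.5-fold lower in the mean of -0.59. Fen1, the flap endonuclease of Okazaki fragment processing, lay at -0.72 and -0.22, so that array 1 carried most of its mean of -0.47. Pcna, the sliding clamp of DNA polymerases, showed the opposite order, with -0.19 on array 1 and -0.58 on array 2. The 2 subunits of ribonucleotide reductase, which makes deoxynucleotides, lay at -0.32 (Rrm1) and -0.21 (Rrm2) in the mean. Tyms, the thymidylate synthase, had a mean of -0.27. Its second measured probe gave -0.41. Pola1, the catalytic subunit of DNA polymerase alpha, lay at -0.02 and -0.41, and Lig1, DNA ligase I, at -0.25 and -0.02. On 1 array each, these 2 genes were nearly level between the pools.

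Of the 5 regulators of the G1 to S transition, 3 were measured. Uhrf1, which recruits the maintenance DNA methyltransferase to newly copied DNA, lay at -0.43 and -0.39. A second probe of Uhrf1 gave a mean of -0.35. Ccne1, cyclin E1, lay at -0.20 and -0.33. E2f1, the transcription factor, was the member on which the arrays disagreed most. It lay at 0.92 on array 1 and -0.41 on array 2, and it was well above background in the transgenic channel alone. With the deposited signals, E2f1 was at least 1.4-fold higher on array 1 against the dimmest control signal that passed as well above background. Array 2 had the opposite sign. With normexp and loess on array 1, the mean of E2f1 was -0.12. A second E2f1 probe, not well above background in either channel, lay at -0.04 and -0.11. Ccne2 and Cdk2 were not well above background in either channel.

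**Figure D2:**
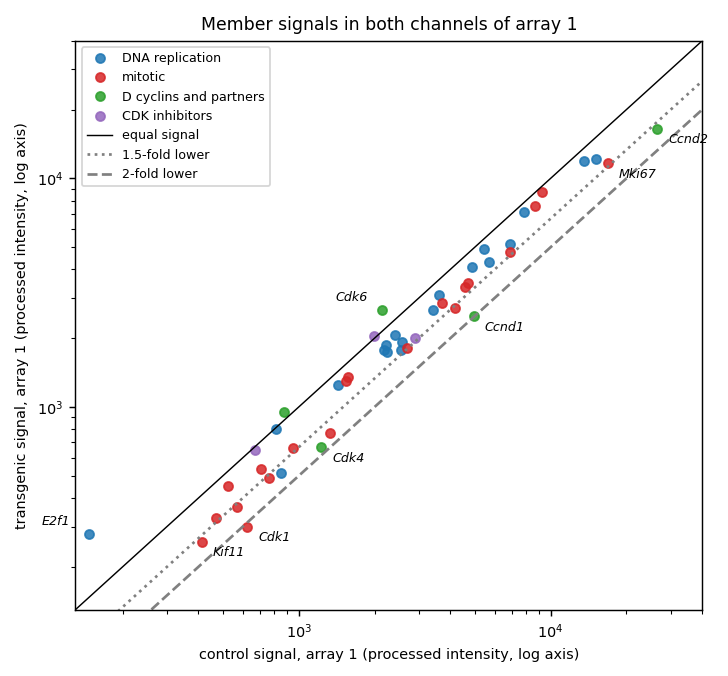
Processed signal of each measured member in the transgenic channel (vertical) against the control channel (horizontal) of array 1, both on log axes, with lines of equal signal and of 1.5-fold and 2-fold lower signal. Most members lie between the lines of equal and 1.5-fold lower signal, and Ccnd1 and Cdk1 lie at the 2-fold line. Several dim members lie outside that band, with Kif11, Nek2, Bub1b and Cdk1 below it and E2f1 above it. Ccnd2, the brightest, also lies below it.

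The mitotic genes lay further below 0. All 20 measured members were below 0 on both arrays, with a median of -0.47, which was -0.52 on array 1 and -0.50 on array 2. The replication median was -0.32, with -0.25 and -0.35 on the arrays. The mitotic median was lower than the replication median by 0.15 in the mean, 0.26 on array 1 and 0.15 on array 2. That difference was not tested, since the arrays count as 1 replicate. The measured probe of Cdk1 and the brightest probe of Top2a are shown as examples. Their coordinates in the array design span more genome than their 60 bases, so that each probe crosses an intron of the gene. The probes shown read 5′ to 3′, with mm8 positions.
Cdk1, chr10:68738032-68740441, minus strand: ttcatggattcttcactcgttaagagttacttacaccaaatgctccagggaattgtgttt
Top2a, chr11:98812020-98812834, minus strand: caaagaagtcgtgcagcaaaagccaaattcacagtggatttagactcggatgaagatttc

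Cdk1, the kinase that starts mitosis, had the lowest mean of the members on the deposited scale, each taken at its brightest probe. With normexp and loess on array 1 its mean was -0.55, above that of Kif11 at -0.62. The probe shown gave signals of 299.6 in the transgenic and 626 in the control channel. Its log2 ratios were -1.06 (array 1) and -0.78 (array 2), 1.89-fold lower in the mean of -0.92. A second Cdk1 probe was not well above background in either channel. Among the partners of Cdk1, Ccnb1 (cyclin B1) lay at -0.52 and -0.94 and Ccnb2 (cyclin B2) at -0.63 and -0.50. The 3 probes of Ccnb1 were all lower, with means from -1.11 to -0.71. Ccna2, cyclin A2, lay at -0.42 and -0.49. As deposited and at the brightest probes, the mean of Cdk1 was lower than that of each of these 3 cyclins. The Ccnb1 probe at -1.11 was lower still. On that scale the values of Cdk1 did not overlap those of Ccnb2 and Ccna2 and overlapped those of Ccnb1. With normexp and loess, Cdk1 lay at -0.32 on array 1. The array 2 values of Ccnb2 and Ccna2 (-0.50 and -0.49) then lay between those of Cdk1 (-0.32 and -0.78).

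The other mitotic kinases and the activator of the anaphase-promoting complex followed with smaller differences. Plk1, the polo kinase, lay at -0.57 and -0.31. The Aurora kinases Aurka and Aurkb had means of -0.35 and -0.48. Cdc20, which activates the anaphase-promoting complex, lay at -0.20 and -0.50. The phosphatase gene Cdc25c was not well above background in either channel.

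Of the spindle checkpoint genes, 4 of 5 were measured, with a median of -0.47. Nek2, a kinase that splits the centrosomes, was 1.5-fold lower on each array as deposited, but not with normexp and loess. Its signals were 365 and 569 in the transgenic and control channels, with log2 ratios of -0.64 and -0.92, or 1.72-fold lower in the mean. Bub1b and Bub1, kinases that hold back anaphase, lay at -0.49 and -0.39 in the mean. Mad2l1, which binds Cdc20 until chromosomes are attached, lay at -0.44, and its second probe at -0.14. Ttk was not well above background.

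The 3 kinesins spanned a wide range. Kif11, the motor that separates the spindle poles, had signals of 257 and 413 in the transgenic and control channels. Its log2 ratios were -0.69 and -1.09, or 1.85-fold lower in the mean, and its other 2 probes were not well above background. Kif20a and Kif23, which act in cytokinesis, lay at -0.43 and -0.31. Genes of chromosomes and centromeres had a median of -0.53 over 5 measured members. Top2a, the topoisomerase that untangles sister DNA, had signals of 773 and 1337 and log2 ratios of -0.79 and -0.57, or 1.6-fold lower in the mean. A second Top2a probe, well above background in the control channel alone, gave -0.74. Mki67, the common marker of dividing cells, was the measured member with the smallest difference between the arrays. Its signals were 11638 and 16875 and its log2 ratios -0.54 and -0.53, while its second probe gave -0.65. Cenpe, a centromere motor, lay at -0.53 and -0.73. Cenpa, the centromere histone, and Birc5, the survivin gene, had the smallest differences of the mitotic group, with means of -0.28 and -0.16.

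The sequences around the start sites differed between the phase groups. RefSeq windows on GRCm38.p6, from 250 bases before to 50 bases after a start, were given for 42 of the 52 members, 19 of the replication and 18 of the mitotic group. Searched on both strands were the core of the CHR element (TTTGAA), the CCAAT box, and the E2F letters TTTCGCGC or TTTGGCGC, none of which contains another. A gene counts when any of its windows holds the letters. TTTGAA was found in 12 of 18 mitotic genes (66.7%) and 2 of 19 replication genes (10.5%), beside 20.2% of all 27025 genes in the table. The E2F letters were found in 8 of 19 replication genes (42.1%) and 1 of 18 mitotic genes, Cdk1 (5.56%), beside 0.929% of all genes. CCAAT was common to both, with 16 of 18 mitotic genes (88.9%) and 12 of 19 replication genes (63.2%), beside 41.1%. Among the 7589 measured genes with a window, the shares were 14.4% (TTTGAA), 42.4% (CCAAT) and 1.77% (E2F). Lists of further pathway genes, described below, were searched too. The E2F letters were in 16.2% of other replication genes, 7.84% of other mitotic genes and 13.9% of other CDK inhibitors and G1 regulators. TTTGAA was in 21.6%, 66.7% and 33.3% of these lists. Counted by window, the letters were in 17.9% (TTTGAA), 37.4% (CCAAT) and 0.813% (E2F) of 32851 windows. A match is a run of letters and was not tested as a binding site.

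The last 150 bases before the start are shown for the 3 mitotic genes with the lowest mean log2 ratio among those that hold TTTGAA there. They read 5′ to 3′ in the direction of the gene, and capitals mark the CHR core, the CCAAT box and the E2F letters on either strand.
Cdk1, chr10:69352913-69353062, minus strand: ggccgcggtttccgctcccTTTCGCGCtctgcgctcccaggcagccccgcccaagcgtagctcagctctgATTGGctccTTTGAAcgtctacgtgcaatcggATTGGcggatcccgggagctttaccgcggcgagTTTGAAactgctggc
Kif11, chr19:37376232-37376381, plus strand: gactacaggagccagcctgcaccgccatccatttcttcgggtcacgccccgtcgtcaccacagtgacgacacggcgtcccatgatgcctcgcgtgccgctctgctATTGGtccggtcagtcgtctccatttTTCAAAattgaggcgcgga
Top2a, chr11:99024190-99024339, minus strand: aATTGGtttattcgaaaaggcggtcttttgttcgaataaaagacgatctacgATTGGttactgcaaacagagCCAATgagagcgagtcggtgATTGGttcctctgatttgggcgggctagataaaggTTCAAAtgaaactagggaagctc
Counted from the start, the E2F letters of Cdk1 begin at position -131 and its CHR cores at -71 and -15. Kif11 has its CHR core, on the other strand, at -19 and a CCAAT box at -45. Top2a has a CHR core, also on the other strand, at -23 and 4 CCAAT boxes within the stretch shown, from -149 to -58. A further CHR core of Top2a, at -179, lies outside that stretch. In each of the 3 genes the CHR core nearest the start thus lies downstream of a CCAAT box.

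The same stretch is shown, with the same capitals, for the 3 replication genes that hold the E2F letters wholly within it.
Mcm5, chr8:75109359-75109508, plus strand: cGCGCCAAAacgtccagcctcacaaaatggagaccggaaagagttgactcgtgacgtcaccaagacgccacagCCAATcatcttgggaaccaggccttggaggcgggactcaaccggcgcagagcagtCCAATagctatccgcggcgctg
Pola1, chrX:93632156-93632305, minus strand: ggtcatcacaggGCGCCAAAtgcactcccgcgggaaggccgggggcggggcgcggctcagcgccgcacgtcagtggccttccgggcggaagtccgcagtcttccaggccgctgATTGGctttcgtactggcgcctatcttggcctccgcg
Mcm6, chr1:128359706-128359855, minus strand: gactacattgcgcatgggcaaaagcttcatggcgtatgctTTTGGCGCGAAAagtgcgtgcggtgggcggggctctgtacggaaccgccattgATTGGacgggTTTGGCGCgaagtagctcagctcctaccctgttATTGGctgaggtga
The Mcm6 stretch holds 3 E2F matches, at -110, -106 and -47, and the pair at -110 and -106 overlaps. In Mcm5 a further match at -153 overlaps the one shown at -149 and begins outside the stretch. Pola1 has its single match at -138. None (0) of the 3 stretches holds the CHR core, and each holds a CCAAT box.

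**Figure D3:**
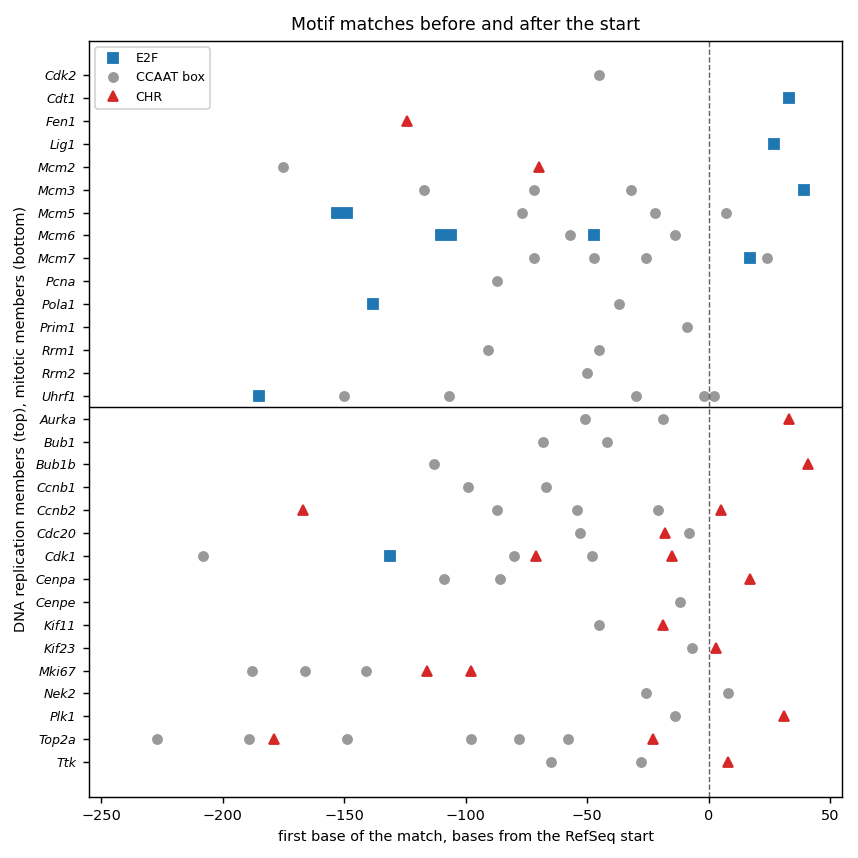
Position of each match (first base, in bases from the RefSeq start at the dashed line) in the windows of replication members (upper rows) and mitotic members (lower rows) that hold at least 1 of the 3 motifs, all windows of a gene together. E2F matches (squares) lie mostly in the upper rows and TTTGAA matches (CHR, triangles) mostly in the lower rows.

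Members with and without the letters are given by their medians, over few genes in each case. The 11 measured mitotic genes with TTTGAA had a median log2 ratio of -0.49 and the 6 without it -0.54. The 8 measured replication genes with E2F letters had a median of -0.27 and the 9 without them -0.32. For CCAAT, the medians were -0.53 over 15 mitotic genes with it and -0.30 over the 2 without it, and -0.34 over 11 replication genes with it and -0.26 over 6 without it. The 2 replication genes with TTTGAA had a median of -0.45 and the 15 without it -0.27. Outside the cell cycle lists, 1042 measured genes with TTTGAA had a median of 0.0044, beside 0.0023 for the 6409 without it. For CCAAT, the medians outside the lists were -0.0006 over 3124 genes with it and 0.0059 over 4327 without it. The 114 measured genes outside the lists with E2F letters had a median of -0.10, with 46.5% on the lower side of 0 in both measurements. The 7337 without these letters had a median of 0.0046, with 34.3% on that side.

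The D cyclins and their kinases, which link growth signals to the cycle, did not move as 1 group. Below 0 on both arrays were 3 of 5, Ccnd1, Ccnd2 and Cdk4. Ccnd1, cyclin D1, had signals of 2489 in the transgenic and 4959 in the control channel. Its log2 ratios were -0.99 (array 1) and -0.77 (array 2), or 1.85-fold lower in the mean, and it was 1.5-fold lower on each array. Ccnd2, cyclin D2, was the brightest member, with signals of 16463 and 26553 on its brightest probe. This probe gave -0.69 and -0.53, and the means of its 3 probes ran from -0.86 to -0.61. The Ccnd2 probe with the lowest mean and the Cdk4 probe are shown, 5′ to 3′ with mm8 positions, as the sequences behind these values.
Ccnd2, chr6:127104788-127104847, minus strand: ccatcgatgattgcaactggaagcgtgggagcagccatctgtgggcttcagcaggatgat
Cdk4, chr10:126467860-126467919, plus strand: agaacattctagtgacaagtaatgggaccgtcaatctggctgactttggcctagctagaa

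The Ccnd2 probe shown gave -0.88 and -0.84, with the arrays closer together than for the brightest probe. Cdk4, the kinase partner of the D cyclins, lay at -0.88 on array 1 and -0.36 on array 2. Ccnd3, cyclin D3, went the other way, with 0.11 and 0.63 and signals of 947 and 875. Cdk6, the second kinase partner, lay at 0.31 and -0.01. The mean log2 ratio of Ccnd3 was 0.37 and that of Cdk6 0.15. The 3 D cyclins were thus split, with Ccnd1 and Ccnd2 lower and Ccnd3 higher on each array. Centred on the spike-ins, the mean of Ccnd3 was -0.10 and that of Cdk6 -0.32, so the sign of both means depends on the scale.

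The CDK inhibitors of the Cip/Kip family halt the cycle. Cdkn1c, which encodes p57, had signals of 2012 and 2902 in the transgenic and control channels. Its log2 ratios were -0.53 (array 1) and -0.74 (array 2), or 1.55-fold lower in the mean. Cdkn1a, which encodes p21, a target of p53, was nearly level, with -0.06 and -0.04 and signals of 646 and 673. Cdkn1b, which encodes p27, lay at 0.04 and -0.32. None (0) of the 3 inhibitors was above 0 on both arrays, and the median of the 3 was -0.14.

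Other genes of the pathway, taken from lists of replication, mitosis and G1 control, are given next for comparison. Of 47 other replication genes, 39 were measured, with a median of -0.29. Of these, 31 were below 0 on both arrays (79.5%) and 0 above, beside 35.7% and 35.3% of all measured genes. Leaving out 3 genes dim in the transgenic channel, the median was -0.28 over 36. None (0) of the 39 was 1.5-fold lower on each array, beside 3.8% of all measured genes. The lowest were Dbf4, the activator of the Cdc7 kinase, at -1.18 and -0.35, Mcm8 at -0.56 and -0.80, and Pole2, a subunit of DNA polymerase epsilon. Pole2 was dim in the transgenic channel and at least 1.44-fold lower on array 1, with a measured mean of -0.64. The highest were Rfc1, Rfc2 and Orc3, with means of 0.09, -0.04 and -0.04, all subunits that load clamps or mark origins.

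Of 60 other mitotic genes, 46 were measured, with a median of -0.36. Of these, 40 were below 0 on both arrays (87.0%) and 1 above, beside 35.7% and 35.3% of all measured genes. Leaving out 7 genes dim in the transgenic channel, the median was -0.34 over 39, with 33 below 0. Sgo1, Kif20b, Cenph and Ncaph were 1.5-fold lower on each array as measured, beside 3.8% of all measured genes. Sgo1, the shugoshin that guards sister cohesion, lay at -0.59 and -0.92. The other 3 were dim in the transgenic channel of array 1. Ncaph, a condensin subunit, was at least 1.43-fold lower there and had a measured mean of -0.92. Cenph and Kif20b, with measured means of -0.91 and -0.86, had dim signals above the lowest signal well above background, so no bound can be given. Ndc80, an outer kinetochore gene, was at least 1.68-fold lower on array 1, with -0.40 on array 2. Pttg1, which encodes securin, stood out on the other side at 0.65 and 0.34. Cdc25b and Tacc3, the next highest, had means of -0.0024 and -0.0074, with Cdc25b at -0.41 and 0.40 on the arrays.

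**Figure D4:**
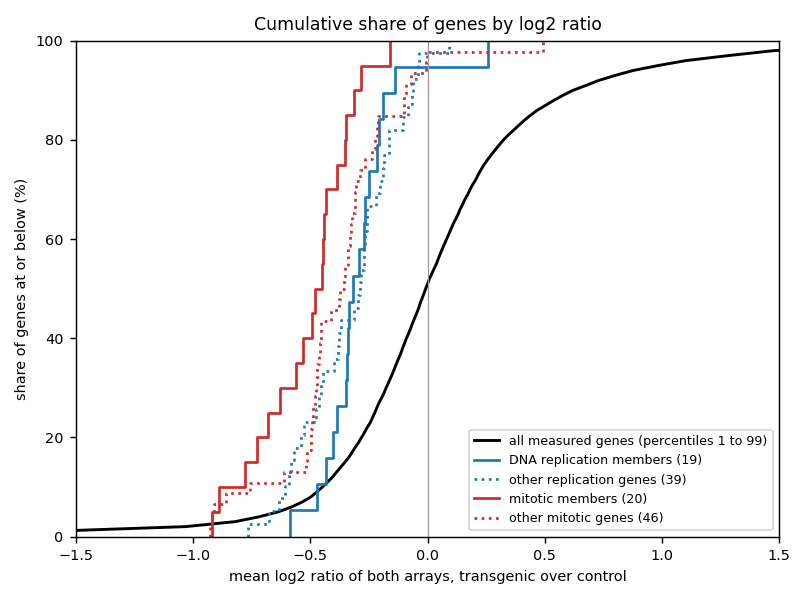
Share of genes (vertical, in percent) at or below a mean log2 ratio (horizontal) for all measured genes in black, the replication and mitotic members in solid lines, and the other replication and mitotic genes in dotted lines. The mitotic members lie furthest left, and all 4 lists lie left of the curve of all genes at the middle of their range.

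The remaining CDK inhibitors and G1 regulators were mixed. Of 43 listed, 37 were measured, with a median of -0.20. Of these, 21 were below 0 on both arrays (56.8%) and 6 above, beside 35.7% and 35.3% of all measured genes. Leaving out 5 dim in the transgenic channel, the median was -0.14 over 32, with 17 below 0 and 6 above. At least 1.5-fold lower on each array were 5, beside 3.8% of all measured genes: Mycn, Mycl, E2f2, Cdkn2b and Rbl1. Mycn, which encodes the transcription factor N-Myc, had the lowest mean of the list, with -0.86 and -1.47. Mycl lay at -0.87 and -1.02. Myc itself was above 0 on both arrays, at 0.36 and 0.27, so the 3 Myc genes were split between the pools. E2f2, an activator of S phase genes, lay at -0.78 and -1.13 with signals of 2726 and 4671. The pocket protein gene Rbl1 (p107) lay at -0.63 and -0.64. Cdkn2b, the gene of the inhibitor p15, was dim in the transgenic channel and at least 2.47-fold lower on array 1. The antiproliferative gene Btg2 lay at 0.67 and 0.25 and the atypical cyclin gene Ccng2 at 0.50 and 0.02. Centred on the spike-ins, 0 members of this list were 1.5-fold higher on each array and 18 were 1.5-fold lower, beside 3.34% and 23.7% of all measured genes.

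Markers of the skin's cell types also differed between the pools. Of 11 hair matrix genes, 7 passed the background rule in each channel of array 1, and 6 of these were 1.5-fold lower on each array, with a median over the 7 of -0.98. Their summed signal on array 1 was 13811 in the transgenic and 27425 in the control channel. Another 3, Shh among them, were dim in the transgenic channel. Msx2 and Lef1, regulators of the growing follicle, had means of -2.01 and -1.65. Of 8 basal keratinocyte genes, 7 were measured, 4 were above 0 and 1 below 0 on both arrays, with a median of 0.19 and summed signals of 255631 and 189328. That basal median turned to -0.28 on the spike-in scale, and the hair matrix median was then -1.45. Hair shaft keratins well above background in both channels were 2-fold lower on each array in 5 of 5 cases (-4.87 to -2.14), and 4 others were dim in the transgenic channel. Inner root sheath genes were likewise 2-fold lower in 5 of 5 cases (-2.79 to -1.87), with 1 other dim there. Melanocyte genes lay below 0 on both arrays in 6 of 6 cases (-1.28). Macrophage genes lay above 0 on both arrays in 5 of 5 cases (median 0.90), as did adipocyte (5 of 5, 1.43) and endothelial genes (5 of 5, 0.64). Suprabasal keratinocyte genes lay above 0 in 6 of 8 cases (0.64). Of 9 T cell genes, 2 were measured, and both were dim in the control channel. Fibroblast and skeletal muscle genes were split, with medians of 0.37 and 0.18. Centred on the spike-ins, these medians turned to -0.10 and -0.29. On that scale the medians of suprabasal and endothelial genes were 0.17 each, that of macrophage genes 0.43 and that of adipocyte genes 0.96. The summed signal of the 20 mitotic members was 53771 in the transgenic and 70991 in the control channel of array 1, and that of the 19 replication members 69495 and 83896. The part of these shifts between cell types in the values of the cell cycle genes was not tested.

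**Figure D5:**
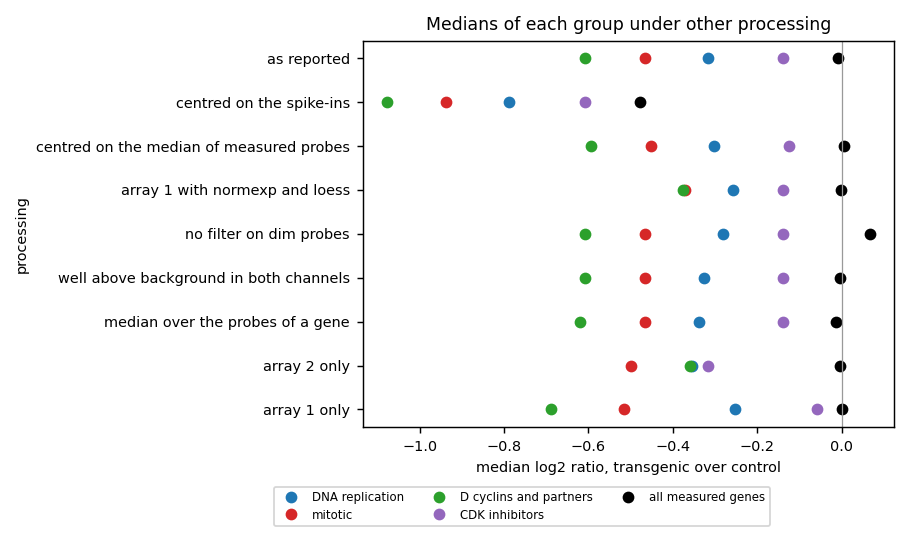
Median log2 ratio of transgenic over control (horizontal axis) for the 4 groups of members and all measured genes under each way of processing (rows). The mitotic median lies left of the replication median in each row, and centring on the spike-ins moves all medians to lower values, that of all measured genes to -0.48.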

How the data were processed

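Skin RNA pooled by genotype was compared on 2 two-colour Agilent arrays with the dyes exchanged, from 500 ng of RNA. The deposited intensity values of array 1 were made by the authors with Agilent's Feature Extraction program (version 9.5.1.1 in the submitters' processing notes), which worked, per the file headers, by removing a spatial background trend, normalising the dyes and replacing dim values by surrogates, which can compress ratios near background. The same program gave the deposited log10 ratio error, per the file headers. The deposited value table holds log10 of Cy5 over Cy3 for each array. Array 1 matched the scanner signals within 5e-10 at all 43790 features. The direction of array 2 follows the dyes in the labels: the columns correlated at -0.579 as deposited, and the spike-ins, which follow the dye, at 1.00. Column medians were 0.0145 and -0.0243, so neither was centred. Signals of array 2 were not used here.

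Values were converted to log2, array 2 was turned, and the arrays were averaged. Control spots and 29 outlier spots were left out, and no spot of array 1 was saturated (0). Probes were named through RefSeq (GRCm38.p6) by accession for 24362, by symbol for 6306 and by synonym for 2424, while the design's own name was used for 8075. Each gene was represented by its brightest measured probe. With array number as the limit, no test was run, and differences are described by size. All members are named, and of each other list the 3 lowest and 3 highest genes. Further list members were named after their values were seen. The members and lists were chosen with earlier results of these data known. A bound for a gene dim in 1 channel is its bright signal over the lowest signal well above background there (190 or 199). It is taken from the deposited signals of array 1 alone, so it holds for that processing and a dye bias would enter it. The alternative for array 1 used limma 3.58.1 in R 4.3.3 (normexp, offset 50, loess), and the rest Python 3.11.15 with pandas 2.3.3 and numpy 2.4.6.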

Additional observations from a re-analysis of the deposited data

How the results depend on the processing

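Only 2 arrays were analysed here, perhaps of the same pools, and signal near background limits the 5 members that were not measured. Under the alternatives that use both arrays and keep the filter on dim probes, between 43 and 45 of the measured members were below 0 on both. Without that filter, 44 of all 52 members were (84.6%). The share of all genes below 0 ran from 21.3% without the filter on dim probes to 78.6% centred on the spike-ins. On a single array, 43 (array 1) and 46 (array 2) members were below 0, beside 49.9% and 50.5% of all measured genes. The medians of all 4 groups kept their sign. Centred on the spike-ins, 6 members were 2-fold apart and 38 were 1.5-fold lower on each array, with medians of -0.79 (replication), -0.94 (mitotic), -1.08 (D cyclins and partners) and -0.61 (CDK inhibitors). With normexp and loess on array 1, 1 member, Ccnd1, was 1.5-fold lower on each array, and the mitotic median was -0.37, while 131 of all measured genes were 1.5-fold lower on each array, against 397 as deposited. With the median over the probes of a gene, 5 members were 1.5-fold lower on each array, Ccnd2 among them, beside 3.89% of all measured genes. Centred on the median of measured probes, the mitotic median was -0.45. From 1 array at a time, 1 member was 2-fold apart on either array, Cdk1 or Kif11, beside 7.45% to 8.07% of all measured genes. From a single array, 8 to 10 members were 1.5-fold lower, beside 7.79% to 7.99% of all measured genes. The mitotic median was then -0.52 to -0.50, the replication median -0.35 to -0.25, that of the D cyclins -0.69 to -0.36 and that of the inhibitors -0.32 to -0.06. The cause of these shifts was not tested. Of the 47 single members, 3 changed sign when centred on the spike-ins, 1 with normexp and loess, and 1 or 2 from a single array.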
